A study of Saccharomyces cerevisiae W303 with 4 samples.

Results

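The genes of Zuo1 (ZUO1), of its partner Ssz1 (SSZ1) and of the Hsp70 and Hsp90 chaperones SSB1, SSB2, SSA1, SSA2, HSC82 and HSP82 were scored for Zuo1 binding in a ChIP-seq experiment in budding yeast. The 8 genes were listed by name, with earlier results of these data known. Their bodies with the 500 bp upstream of the start codon were taken from the R64 annotation, which holds 6002 nuclear protein-coding genes. All 4 libraries came from 1 strain of the W303 background that carried ZUO1 with 13 Myc epitopes at the C-terminus, at its own locus and promoter, and an untagged strain was not analysed here. Cultures were asynchronous, grown at 30 °C without a heat shock step and crosslinked with formaldehyde. The 2 IP libraries were made from chromatin precipitated with an anti-Myc antibody and the 2 input libraries from sheared chromatin. The authors called peaks once on all libraries, and a single list of 1594 peaks, 1543 of them on nuclear chromosomes, was used here. It holds no value per library, and therefore no replicate spread and no test between genes can be given. The value of a peak is its fold enrichment, the ratio of IP fragments to the local background at the highest point of the peak, called the summit.

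Zuo1 is a J-protein that stimulates the ATP hydrolysis of Hsp70. Together with Ssz1, an unusual Hsp70 that does not itself fold substrates in the usual cycle, it forms the ribosome-associated complex, which recruits the Hsp70s Ssb1 and Ssb2 to chains leaving the ribosome. The Ssa proteins are the main cytosolic Hsp70s. Ssa1 and Ssa2 are made in unstressed cells, Ssa1 also rises upon heat, and Ssa3 and Ssa4 are made mainly under stress. Hsc82 and Hsp82 are the cytosolic Hsp90s, of which Hsc82 is the constitutive and Hsp82 the strongly heat-induced form.

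A Zuo1 peak was found in 7 of the 8 genes, compared with 24.4% of all nuclear coding genes. Among the genes as long as these 8, from 1302 to 2130 bp, 23.3% had one. Each of the 7 genes had exactly 1 peak, and in each its summit lay inside the gene body. The body alone was overlapped in 7 of 8 genes (17.9% of all genes). The 500 bp upstream were overlapped in 0 of 8, and at a share of 13.3% in all genes this count is no result about them. Fold enrichment reached 3 or more in SSB1, SSA1, SSA2 and HSC82, which are 4 of 8 genes (10.8% of all genes). At least 75% of the body was covered by the peak in SSB1, SSB2, SSA1, SSA2 and HSC82. These are 5 of 8 genes (5.26% of all genes). SSA1 and SSA2 share much of their sequence, as do SSB1 and SSB2, so the genes of each pair may not be separate cases. SSZ1 had no peak, and the nearest one lay 8145 bp away with a fold enrichment of 1.74.

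**Figure D1:**
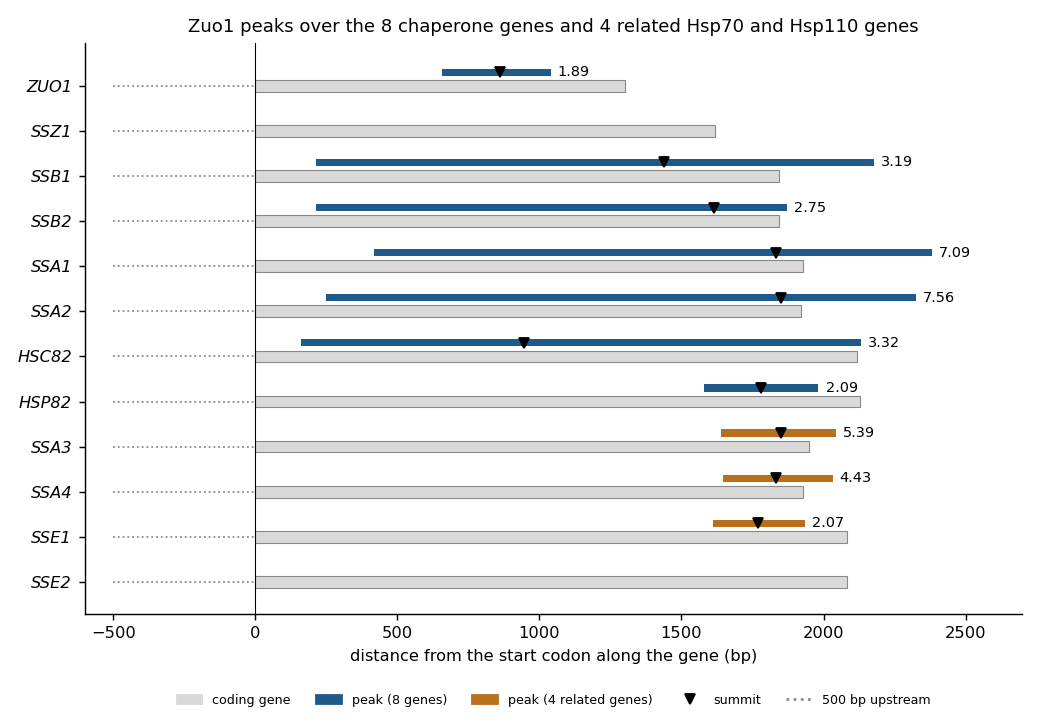
Peaks (bars), their summits (triangles) and fold enrichments (numbers) over the coding genes (grey), drawn along the gene from the start codon in bp, for the 8 genes and 4 related genes. Peaks lie over the bodies, none reaches the 500 bp upstream (dotted), and the peaks of SSB1, SSB2, SSA1, SSA2 and HSC82 are the long ones.

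The sequences at the summits of the Ssa genes are shown first, because all 4 summits fall on the same part of the protein. They are read from R64 on the coding strand, 5′ to 3′, from 60 bases before to 60 bases after the summit, and capitals mark runs of 2 or more G. SSA1 is at chrI:139540-139660, minus strand; SSA2 at chrXII:95574-95694, minus strand; SSA3 at chrII:84538-84658, minus strand; and SSA4 at chrV:366362-366482, plus strand.
SSA1: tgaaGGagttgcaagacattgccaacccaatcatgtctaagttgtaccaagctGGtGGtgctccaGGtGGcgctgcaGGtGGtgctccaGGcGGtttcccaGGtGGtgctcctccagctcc
SSA2: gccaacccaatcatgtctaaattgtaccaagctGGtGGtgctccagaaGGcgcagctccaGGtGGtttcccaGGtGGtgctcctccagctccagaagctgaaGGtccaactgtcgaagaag
SSA3: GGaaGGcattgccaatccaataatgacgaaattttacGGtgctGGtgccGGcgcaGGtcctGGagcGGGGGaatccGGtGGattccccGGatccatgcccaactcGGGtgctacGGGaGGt
SSA4: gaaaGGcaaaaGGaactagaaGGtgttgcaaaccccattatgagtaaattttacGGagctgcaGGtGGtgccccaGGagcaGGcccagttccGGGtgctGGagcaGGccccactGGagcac
The part of each stretch with most of the capitals encodes, in frame, glycine-rich sequence near the end of the Ssa proteins. The 121 bases hold 11 such runs in SSA1, 8 in SSA2, 14 in SSA3 and 12 in SSA4.

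SSA1 (YAL005C, chromosome I from 139503 to 141431) and SSA2 (YLL024C, chromosome XII from 95566 to 97485) had the strongest peaks of the 8 genes. At SSA2 the fold enrichment was 7.56, from 274 IP fragments over a background of 35.4. The 95% exact Poisson interval of this fragment number corresponds to folds of 6.69 to 8.51. At SSA1 it was 7.09, from 253 fragments over 34.8 (interval 6.24 to 8.01). The 2 intervals overlap, so that SSA1 and SSA2 are not told apart by counting error. By their strongest peak, SSA2 ranked 117 and SSA1 ranked 136 among the 6002 coding genes. Intervals cover counting error only. Fragments carry no molecular identifiers, the error of the background is not included, and the summit is the highest point by construction.

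The peak of SSA1 spans 1964 bp, from 139051 to 141014, and that of SSA2 spans 2076 bp, from 95161 to 97236. The median nuclear peak is 426 bp long, and 7.19% of the nuclear peaks reach 1500 bp. Both peaks begin within the gene, 417 bp after the start codon of SSA1 and 249 bp after that of SSA2, and both run past the stop codon, by 452 and 405 bp. The summits lie close to the end of the gene, 97 bp before the end of the stop codon in SSA1 and 68 bp in SSA2. Over all 976 nuclear peaks with a summit in exactly 1 coding gene, the median position was 55.1% of the way from the start codon, and 8.81% of the summits lay beyond 90% of the gene length. The peak of SSA1 also covers TRN1, a proline tRNA gene from 139152 to 139254, whose near end is 346 bp from the summit. The part of TRN1 in this peak was not tested.

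The heat-induced Hsp70 genes SSA3 (YBL075C) and SSA4 (YER103W), which are not among the 8 genes, had peaks at the same place. The fold enrichment was 5.39 at SSA3 (190 fragments, interval 4.65 to 6.21) and 4.43 at SSA4 (159 fragments, interval 3.78 to 5.17). Their summits lie 99 bp and 95 bp before the gene end. When the coding sequences were aligned, the summit of SSA2 was 20 bp, that of SSA3 10 bp and that of SSA4 10 bp from the position of the SSA1 summit. Thus the 4 Ssa genes share the summit position, while the peaks of SSA3 and SSA4 are short, with 406 and 387 bp, and cover 15.9% and 14.7% of the body. SSA1 and SSA2 were covered over 78.4% and 87.0%. The intervals of SSA1 and SSA2 do not overlap those of SSA3 or SSA4, which overlap each other.

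Glycine codons (GGN) were counted in the 50 codons around each summit. There were 11 in SSA1, 8 in SSA2 (of 47 codons up to the stop codon), 14 in SSA3 and 11 in SSA4. Over the 774 summits in intronless coding genes the median was 3, and 9.56% of them had 8 or more. The other members had fewer, with 1 in ZUO1, 4 in SSB1, 0 in SSB2, 1 in HSC82 and 2 in HSP82. GC content in the 201 bp around the summit was 53.7% in SSA1 and 48.8% in SSA2, compared with a median of 42.8% over all nuclear summits. It was 53.2% in SSA3 and 53.7% in SSA4.

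**Figure D2:**
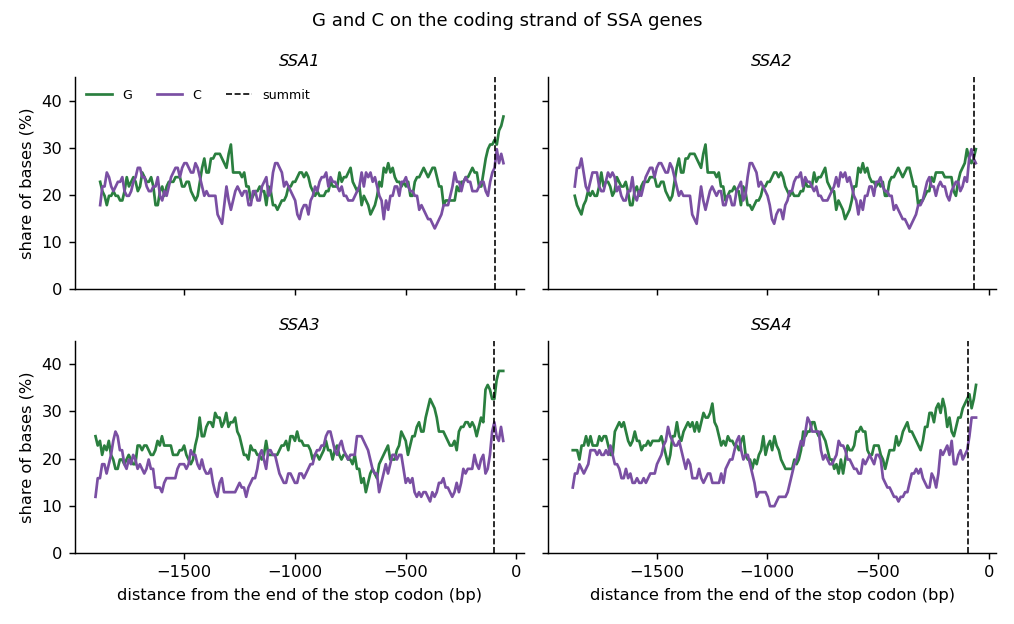
Share of G (green) and C (violet) in % on the coding strand in windows of 101 bp, against the distance in bp from the end of the stop codon, for SSA1, SSA2, SSA3 and SSA4, with the summit of the Zuo1 peak as a dashed line. G and C rise together near the end of each gene, where the 4 summits lie at 97, 68, 99 and 95 bp.

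A G4 motif was taken as 4 tracts of at least 3 G separated by 1 to 25 nt on either strand. It was found in 0 of the 7 peaks at the 8 genes. Of all nuclear peaks 8.43% hold such a motif, and of all gene bodies 5.80%. Beside this share of peaks, the count of 0 is no result about the genes. SSA4 was the exception among the related genes. Its peak holds a motif of 64 bp on the template strand at chrV:366432-366495, shown here because it is the only such motif in these 12 genes and their peaks, with runs of 3 or more G in capitals.
SSA4 motif: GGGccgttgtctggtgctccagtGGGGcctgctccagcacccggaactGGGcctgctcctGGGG
A looser motif has 4 tracts of at least 2 G separated by 1 to 7 nt. The peaks of SSA1, SSA2 and SSB1 hold a match to it, which are 3 of the 7 peaks. This motif is common, as it was found in 53.3% of the nuclear peaks and 65.5% of the gene bodies. A match describes the letters only.

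SSB1 (YDL229W, chromosome IV from 44065 to 45906) and SSB2 (YNL209W, chromosome XIV from 252059 to 253900), whose products bind nascent chains at the ribosome, had peaks of middle strength. Fold enrichment at SSB1 was 3.19 (124 IP fragments, interval 2.66 to 3.80) and at SSB2 it was 2.75 (106 fragments, interval 2.26 to 3.33). These intervals overlap. The peaks are broad again, with 1965 bp from 44279 to 46243 at SSB1 and 1656 bp from 252274 to 253929 at SSB2. They begin 214 and 215 bp after the start codon and cover 88.4% and 88.3% of the body. The summits are at 78.2% and 87.6% of the gene length. They fall on different places, since the summit of SSB2 lies 174 bp further along the aligned gene.

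HSC82 (YMR186W, chromosome XIII from 632355 to 634472) and HSP82 (YPL240C, chromosome XVI from 96496 to 98625) encode the constitutive and the heat-induced Hsp90, and here the paralogs differed. Fold enrichment was 3.32 at HSC82 (129 IP fragments over a background of 38.1, interval 2.78 to 3.94) and 2.09 at HSP82 (76 fragments over 35.8, interval 1.65 to 2.61). The ratio was 1.59, and the counting intervals do not overlap. The peak of HSC82, from 632515 to 634486, spans 1972 bp and covers 92.4% of the gene. The peak of HSP82, from 96643 to 97044, spans 402 bp and covers 18.9%. The summit of HSC82 is in the middle of the gene at 44.6% of its length, whereas that of HSP82 is at 83.7%.

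The position of the HSP82 peak overlaps the longest stretch that both Hsp90 genes share. The coding sequences are 92.5% identical, and the longest run without a difference has 113 bp. In HSP82 this run extends from 1752 to 1864 bp after the start codon, and the summit at 1781 bp lies within it. The run is shown with 20 bases on either side, on the coding strand of R64, and capitals mark the 3 bases that differ between both genes. HSC82 is at chrXIII:634075-634227, plus strand, and HSP82 at chrXVI:96741-96893, minus strand.
HSC82: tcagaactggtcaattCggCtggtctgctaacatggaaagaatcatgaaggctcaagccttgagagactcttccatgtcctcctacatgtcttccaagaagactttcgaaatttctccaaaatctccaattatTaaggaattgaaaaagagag
HSP82: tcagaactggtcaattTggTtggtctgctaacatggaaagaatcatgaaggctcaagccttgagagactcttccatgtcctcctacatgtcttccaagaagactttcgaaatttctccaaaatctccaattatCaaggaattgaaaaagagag
Of the 64-base windows that cover the HSP82 summit, 46.9% occur more than once in the genome, compared with 3.63% of the windows over the whole gene. A read of 64 bases from such a window matches both genes equally well, and the rule by which the aligner placed it is not given in the sources used here. How much of the HSP82 peak came from reads of HSC82 was not tested.

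The same count was made for the other pairs. SSA1 and SSA2 are 96.9% identical, and 52.7% and 50.6% of the windows in their peaks occur more than once. The last part of both genes is distinct, and of the windows that cover their summits 0% are repeated. SSB1 and SSB2 are 97.7% identical with a shared run of 563 bp, and 36.1% and 43.1% of the windows in their peaks are repeated. At the summit, the share was 100% in SSB1 and 0% in SSB2, and how many reads of one gene were placed on the other was not tested. In ZUO1, SSZ1, SSA3, SSA4, SSE1 and SSE2, 0% of the windows were repeated, so that the reads of these peaks have 1 exact place in the reference. Fragments that start outside these windows also reach a summit, and the reference is S288C while the cells are W303.

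**Figure D3:**
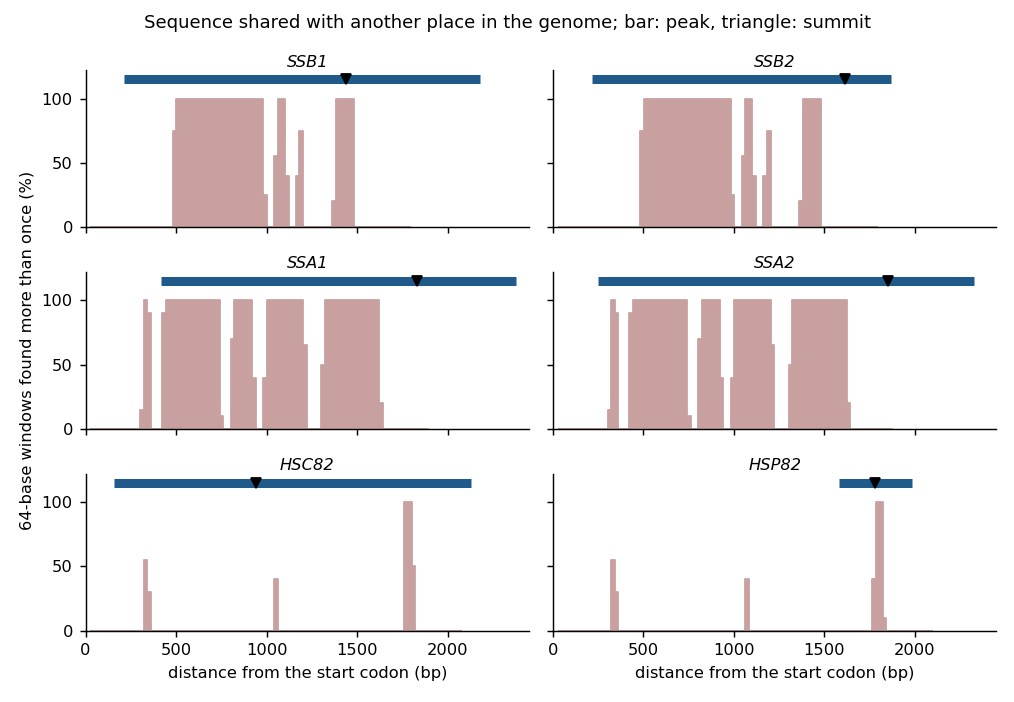
Share in % of 64-base windows that occur more than once in the genome (filled), against the distance in bp from the start codon, with the peak (bar) and the summit (triangle), for the pairs SSB1 and SSB2, SSA1 and SSA2, and HSC82 and HSP82. The summits of SSA1, SSA2, SSB2 and HSC82 lie outside the shared stretches, those of SSB1 and HSP82 lie in or at the edge of one.

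ZUO1 (YGR285C, chromosome VII from 1061852 to 1063153) had the weakest peak of the 7 genes. Fold enrichment was 1.89, from 65 IP fragments over a background of 33.9 (interval 1.47 to 2.40), which is below the median of 2.44 over the nuclear peaks. The peak, from 1062113 to 1062497, spans 385 bp, covers 29.6% of the gene and has its summit 860 bp after the start codon. The strain carries the tag at the 3′ end of this gene, 441 bp from the summit, and its sequence is not part of the reference. An effect of the tag cassette on this value was not tested. SSZ1 (YHR064C, chromosome VIII from 225525 to 227141), whose product binds Zuo1, was the only one of the 8 genes without a peak in the list.

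**Figure D4:**
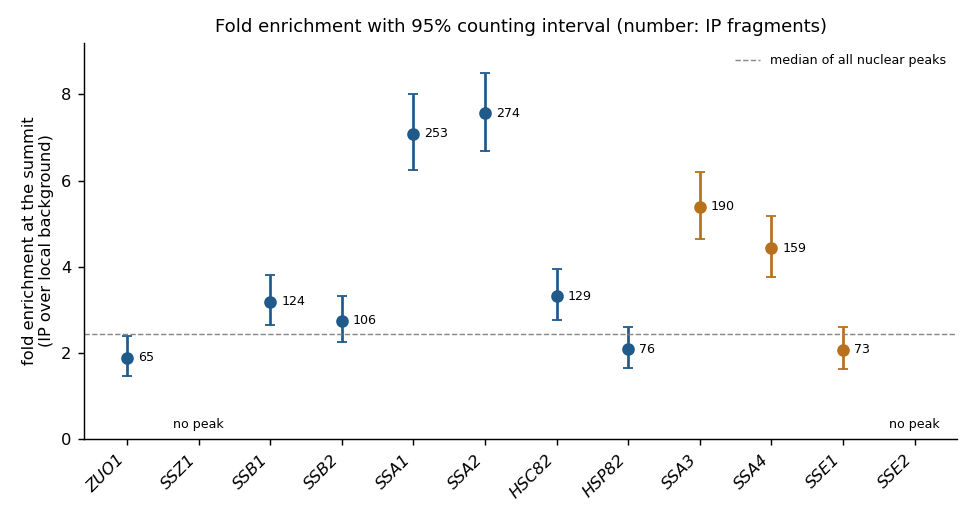
Fold enrichment at the summit (y axis) by gene (x axis), with the 95% Poisson interval of the IP fragment number (bars) and that number beside each point, for the 8 genes (blue) and 4 related genes (orange). SSA1 and SSA2 stand at 7.09 and 7.56, SSB1, SSB2 and HSC82 between 2.75 and 3.32, and HSP82 and ZUO1 below the dashed median of 2.44.

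Over the 7 genes with a peak, fold enrichment had a median of 3.19 and the number of IP fragments at the summit a median of 124, whereas the median over all nuclear peaks was 92. The local background varied little, from 33.9 to 38.1 fragments. With such a background, fold enrichment follows the IP fragment number by construction, since that number was recovered from the fold. The strongest peak of a coding gene had a median fold of 2.80 over the 1465 genes with a peak. SSB2 lies close to it, ranking 746 among all coding genes, while HSC82 ranked 543, SSB1 577, HSP82 1209 and ZUO1 1362.

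**Figure D5:**
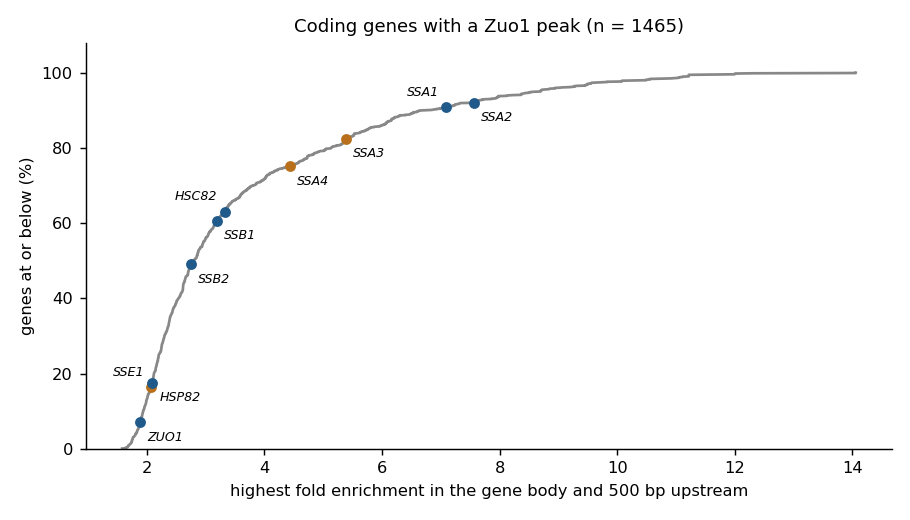
Share of the 1465 coding genes with a peak (y axis, %) whose highest fold enrichment is at or below the value on the x axis, with the 7 of the 8 genes that have a peak in blue and the related genes in orange. SSA1 and SSA2 are in the upper part of the curve at 7.09 and 7.56, and ZUO1 is near its foot at 1.89.

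Constitutive and heat-induced paralogs were then set side by side. As constitutive genes SSA1, SSA2, SSB1, SSB2, HSC82 and SSE1 were taken, and as heat-induced genes HSP82, SSA3, SSA4 and SSE2. SSE1 and SSE2 encode the Hsp110 proteins, which exchange the nucleotide of Hsp70. A peak was found in 6 of the 6 constitutive and in 3 of the 4 heat-induced genes (24.4% of all coding genes). In the Hsp110 pair, SSE1 had a short peak of 322 bp with a fold enrichment of 2.07 (73 fragments, interval 1.63 to 2.60), and SSE2 had none. The share of the body under a peak was 75% or more in 5 of the 6 constitutive genes, with SSE1 at 15.5%, compared with 5.26% of all coding genes. It was so in 0 of the 4 heat-induced genes, which ranged from 0% to 18.9%. At a share of 5.26% in all genes this count is no result about them. Of the 5 covered genes, SSA1, SSA2, SSB1 and SSB2 form near-identical pairs and may not be separate cases. In their peaks 52.7%, 50.6%, 36.1% and 43.1% of the windows are repeated. The share is 3.93% in the peak of HSC82 and 0% in those of SSA3 and SSA4. SSB1 and SSB2 have no heat-induced paralog among the 4. How far the placing of repeated reads set the covered share was not tested. In each of the Ssa, Hsp90 and Hsp110 families, every constitutive gene was above every heat-induced gene in fold enrichment, or had a peak where the other had none. In the Ssa case, SSA1 is counted as constitutive although it also rises upon heat. The Hsp110 case rests on SSE1 at 2.07, while the lowest fold in the list is 1.56, so SSE2 may hold weaker signal that was not called. In the Hsp90 case, 46.9% of the windows at the HSP82 summit are repeated. Transcript levels were not part of these data, so how transcription at 30 °C moves with these values was not tested.

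Heat shock elements, the binding sites of the factor Hsf1, were searched as GAANNTTCNNGAA on both strands in the 500 bp upstream. A match is present upstream of 1.48% of all coding genes. SSA1 has 3 matches, of which the first 2 overlap, SSA2 has 1 and SSE1 has 1. They are shown as read along the gene, since none lies under a Zuo1 peak.
SSA1, chrI:141783-141795, minus strand: ttccagaacattc
SSA1, chrI:141778-141790, minus strand: gaacattctagaa
SSA1, chrI:141680-141692, minus strand: ttccagaacgttc
SSA2, chrXII:97706-97718, minus strand: ttctagaacattc
SSE1, chrXVI:352449-352461, minus strand: ttctagaagattc
For the 4 heat-induced genes there was no match, which says only that these exact letters are not in the window. The upstream windows of all 12 genes were free of peaks, with or without a match. Since only 13.3% of all coding genes have a peak there, this is no result about them.

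Other chaperone genes were scored from a list of 68 genes. Of these, 22 had a peak in the body or the 500 bp upstream (32.4%), and 11 had one of 3-fold or more (16.2%). Over all coding genes these shares are 24.4% and 10.8%. The median fold enrichment over the 22 genes was 2.999, compared with 2.80 over all coding genes with a peak. Among the J-proteins, the family of Zuo1, 6 of 20 had a peak, and 5 of 20 had a summit inside the gene. Beside the 24.4% of all coding genes, this count is no result about the family. The strongest peaks were at SIS1, the essential partner of the Ssa proteins, with 8.78 (305 fragments, interval 7.83 to 9.82), and at MDJ1, a mitochondrial J-protein, with 6.75 (227 fragments, interval 5.91 to 7.69). SCJ1 of the endoplasmic reticulum followed with 3.19, then HLJ1 with 2.83 and JJJ2 with 2.48, whose peak lies upstream of the gene. YDJ1, the other main partner of Ssa, had 2.18.

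The summits of SIS1 and MDJ1, the strongest J-protein peaks, lie in stretches that encode many glycines, with 15 and 17 glycine codons of 50. At the other J-protein peaks, such as those of SCJ1 and YDJ1, these codons were not counted singly. The peaks of SIS1 and MDJ1 hold no G4 motif of the first definition. Their sequences are given for comparison with the Ssa genes, on the coding strand with runs of 2 or more G in capitals. SIS1 is at chrXIV:619172-619292, minus strand, and MDJ1 at chrVI:105748-105868, minus strand.
SIS1: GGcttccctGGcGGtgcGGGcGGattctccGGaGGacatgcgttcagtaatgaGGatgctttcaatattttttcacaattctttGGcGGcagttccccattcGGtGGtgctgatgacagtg
MDJ1: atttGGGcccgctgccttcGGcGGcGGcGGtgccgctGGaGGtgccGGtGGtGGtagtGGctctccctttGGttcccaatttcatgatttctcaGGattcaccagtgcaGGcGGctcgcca
Both summits are in the first part of the gene, at codon 112 of 352 in SIS1 and codon 143 of 511 in MDJ1. They lie in the region rich in glycine and phenylalanine that follows the J-domain.

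The counts in the remaining groups are small and are read against the 24.4% of all coding genes with a peak, so that none is given as a result about its group. The nascent-chain complex NAC, which binds ribosomes beside Zuo1, had a peak at 1 of 3 genes, EGD2 with 2.11. Among 9 other Hsp70 and Hsp110 genes, 5 had a peak. Besides SSA3, SSA4 and SSE1 these were KAR2 of the endoplasmic reticulum with 2.30 and SSC1 of mitochondria with 2.45. The SSC1 value is from a peak upstream of the gene with its summit between genes, while another peak overlaps the body. Of the Hsp70 exchange factors, 1 of 4 had a peak, FES1 with 1.92. Hsp90 cochaperones had a peak at 4 of 12 genes. For the strongest peak of AHA1 (7.21) and the peak of TAH1 (5.34), the summit lies in a neighbouring gene, YDR215C and YIH1. AHA1 has another peak with its summit inside the gene, and PIH1 (3.89) also holds its own summit. SBA1 (2.94) has its peak upstream, with the summit between genes. The chaperonins and prefoldin had a peak at 4 of 16 genes, and CCT6 (6.03) and CCT4 (4.22) of the cytosolic chaperonin reached 3-fold. Among the disaggregases and small heat shock proteins 1 of 4 had a peak, upstream of HSP42 with 3.05.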

How the data were processed

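ChIP-seq was performed in W303 yeast with Zuo1 fused to Myc, with 2 IP and 2 input libraries. The authors aligned single-end reads of 64 bases to sacCer3 with bowtie (bowtie2 in one of their statements) and pooled the libraries for a narrow peak call with MACS 2.0 (q-value 0.05). Their stated command names an input library among the treatment files and an IP library among the controls, and IP over input was assumed here. The deposited list was read by position, because its header line names other columns. For each summit the authors deposited the fold enrichment (a ratio), the p-value as −log10, and a score, which is the q-value as −log10. Summit offsets were deposited in the same list. Reads per library are not in the list and were not analysed here.

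Chromosome lengths of R64 were compatible with all peak positions. Genes were overlapped with peaks by at least 1 bp. The IP fragment number n and local background b were recovered from the fold, taken as (n + 1)/(b + 1), and the Poisson p. The recovered n was whole to within 0.000912 in every peak. Exact 95% Poisson intervals were set on n. Both steps were tested on simulated data. Paralogs were aligned globally (Biopython 1.88). Scripts ran in Python 3.11.15 with SciPy 1.17.1 and NumPy 2.4.6, and matplotlib 3.10.9 drew the plots. No test was run, since the list used here has no value per replicate. The background was also taken among genes of the same length, while a split by number of neighbouring genes was planned and not run. Windows, overlap, fold and q thresholds were varied. The genes and lists were chosen with earlier results of these data known. The genes named were all 8 members, SSA3, SSA4, SSE1, SSE2, and the genes of the wider list with a peak of 3-fold or more. KAR2, SSC1, YDJ1, HLJ1, JJJ2, EGD2, FES1, SBA1, HSP60, PPT1 and the glycine codon counts were chosen after their values were seen.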

Additional observations from a re-analysis of the deposited data

How the results depend on the processing

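Of the 8 genes, 7 had a peak under the main setting, and this number stayed at 7 with a −log10 q of 3 or more, an overlap of 100 bp or more, the summit inside the window, an upstream window of 250 or 1000 bp, the gene body only, and an upstream window ended at the next gene. It was 4 with a fold enrichment of 3 or more (10.8% of all genes) and 0 in the upstream window only (13.3% of all genes). The fold enrichment of each gene and the 3 paralog ratios could not move in the 28 and 12 alternatives run on them, since these change only the window and each gene has 1 peak with its summit in the body, so they say nothing about stability. The number of peaks with a G4 motif was 0 and became 3 with tracts of 2 or more G, an alternative chosen after seeing the data. No paired analysis was possible because the peak list used here carries no value per library. The reads of single libraries were not analysed here, and leaving out a replicate was not done. The list holds only places past the threshold, with at least 43 IP fragments at the summit and a fold of at least 1.56, so that a gene without a peak, such as SSZ1, may hold weaker signal.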

Other observations

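The glycine codons at the Ssa summits led to a count over all genes, chosen after these values were seen and given without a test. Of 5386 intronless coding genes, 106 have 8 or more glycine codons among their last 50 codons. A Zuo1 peak lies over this last part in 29 of them (27.4%), and one of 3-fold or more in 25 (23.6%). Over all 5386 genes the shares are 9.39% and 4.40%. SSA1, SSA2, SSA3 and SSA4, which prompted the count, are among the 25. The threshold of 8 equals the count of SSA2, the lowest of these Ssa genes, so all of them pass it. The highest of the 25 are NPL3 with a fold enrichment of 12.0, the 4 ASP3 copies with 8.70 to 11.2, RSC8 with 11.1, SPT5 with 10.9, DED1 with 9.31, GAR1 with 9.03, LAS17 with 8.94 and NSR1 with 8.12, followed by SSA2 and SSA1. The ASP3 copies share their sequence and are not separate cases. Most of the 106 genes have no peak over this last part. Of the wider chaperone list, HSP60 with 9 glycine codons there and SBA1 and PPT1 with 8 each are among those without.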
